A study of Mus musculus with 7 samples.

Results

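The genes of the insulin-like growth factor (IGF) binding proteins, with the acid-labile subunit, a pappalysin protease and its inhibitor, were followed in mouse quadriceps, the large thigh muscle. The 10 genes were picked by symbol from the deposited table of 53819 genes: Igfbp1, Igfbp2, Igfbp3, Igfbp4, Igfbp5, Igfbp6 and Igfbp7, and Igfals, Pappa and Stc2. All 10 were in the table, and 9 passed the filter on low counts, Igfbp2 being the exception. The 7 libraries came from male wild type C57BL/6J mice, an inbred strain, given 200 µl of AAV8, a liver-tropic adeno-associated virus, by tail vein when 8 weeks old and killed after 54 days. They had been given AAV8-Alb-IGFBP1 in 3 libraries (AAV8-IGFBP1) and AAV8-Alb-Null in 4 libraries (AAV8-Null), so the control mice carried the same virus type. Alb is the symbol of albumin, a liver gene, and the vector's name carries it in both groups. The labels do not say whether each library is from a separate mouse, so the spread behind every p-value is that between samples and may be technical. The study's title asks about raised IGFBP1 and the musculoskeletal system.

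IGF-binding proteins carry IGF1 and IGF2 in blood and tissue, prolong their life and keep them from the IGF1 receptor until they are released. IGFBP1 is made mainly by the liver under the control of insulin, IGFBP3 and IGFBP5 can join IGF and the acid-labile subunit (Igfals) in a long-lived complex in serum, and IGFBP5 is a main binding protein of skeletal muscle. Proteases free the IGFs by cutting the binding proteins: the pappalysin encoded by Pappa cuts IGFBP4 and IGFBP5, and stanniocalcin-2, encoded by Stc2, is an inhibitor of that protease and not a protease itself.

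The library totals ran from 39927112 to 46197173 counts in AAV8-IGFBP1 and from 38947453 to 51210360 counts in AAV8-Null (exact permutation p = 0.714, two-sided). Markers of skeletal muscle fibres (8 genes, Ckm and Acta1 among them) summed to 172027 to 191198 CPM (the usual scale of counts relative to the library total, with totals scaled by TMM) in AAV8-IGFBP1 and 151783 to 181604 CPM in AAV8-Null, and were thus abundant in all 7. The library AAV8-IGFBP1 replicate 2 stood apart, at 44.1 on the first principal component against -24 to 10.9 for the other 6, and had the most adipocyte marker counts (8 genes, all tested; 1768 CPM summed, against 539 and 671 CPM in the other AAV8-IGFBP1 libraries and 415 to 663 CPM in AAV8-Null). Slow fibre markers (8 genes, all tested, 0 called) summed to 268, 509 and 853 CPM in AAV8-IGFBP1 and to 613, 1200, 1746 and 1919 CPM in AAV8-Null (exact permutation p of the mean log2 level 0.0857). Satellite cell markers (8 genes, 7 tested, Sdc4 called lower) summed to 39.3, 41.6 and 44.2 CPM in AAV8-IGFBP1 and to 52.1 to 62 CPM in AAV8-Null (exact permutation p of the mean log2 level 0.0286). The lower sum came mostly from Sdc4 (14, 14.7 and 15.1 CPM in AAV8-IGFBP1, 24 to 36.1 CPM in AAV8-Null). Cdh15, the other abundant marker, was higher without overlap (20.4, 21.1 and 24.1 CPM against 17.8 to 19.8 CPM, edgeR adjusted p 0.286). It was the only tested marker of this list with a log2 fold change above 0. Smooth muscle and pericyte markers (8 genes, Tagln called lower) summed to 227 to 245 CPM in AAV8-IGFBP1 and 229 to 305 CPM in AAV8-Null, with overlap (exact permutation p of the mean log2 level 0.0571). The 18S ribosomal RNA gene Rn18s took 1.09%, 2.29% and 1.52% of counts in AAV8-IGFBP1 and 0.593% to 1.32% in AAV8-Null, and mitochondrial genes took 14.7%, 14.8% and 15.5% in AAV8-IGFBP1 and 15.1% to 18.6% in AAV8-Null (exact permutation p = 0.0857 for each). The part of these differences in the results below was not tested, and in bulk muscle fewer cells of a type and less RNA per cell cannot be told apart.

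Igfals and Igfbp5 rose in the muscle of AAV8-IGFBP1 mice, 2.37-fold and 1.67-fold. Igfbp1 and Pappa were also higher in every AAV8-IGFBP1 library than in every AAV8-Null library, but missed the threshold, an adjusted p of 0.05 by edgeR's quasi-likelihood test over 14935 genes. The other 5 tested genes, Igfbp3, Igfbp4, Igfbp6, Igfbp7 and Stc2, had overlapping groups and did not pass. The count was therefore 2 of 9 tested genes called higher, where 0.388% of all genes tested were called higher, and 0 called lower, where 0.194% of all genes were. By DESeq2 4 of the genes were called, all higher, where 1.41% of all genes were called higher and 2.91% in either direction. The log2 fold change was above 0 in 7 of the 9, as in 49.9% of all genes. By edgeR 4 of the 9, all higher, had an unadjusted p under 0.05, as did 12.9% of all genes. The groups did not overlap in 4 of the 9, all higher, as in 6.33% of all genes (higher). The median log2 fold change of the 9 was 0.65 and that of all genes -0.001. Igfbp1, the gene the vector was built to raise, is in this median, among the 7 above 0 and among the 4 of each count above. It is not among the 2 called by edgeR. It passed the filter on low counts only through the AAV8-IGFBP1 libraries, so its place in these counts was fixed by the design. Without it, the genes left in each count of 4 were Igfbp5, Igfals and Pappa. Its rise was the aim of the design, so it adds nothing on the other genes.

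**Figure D1:**
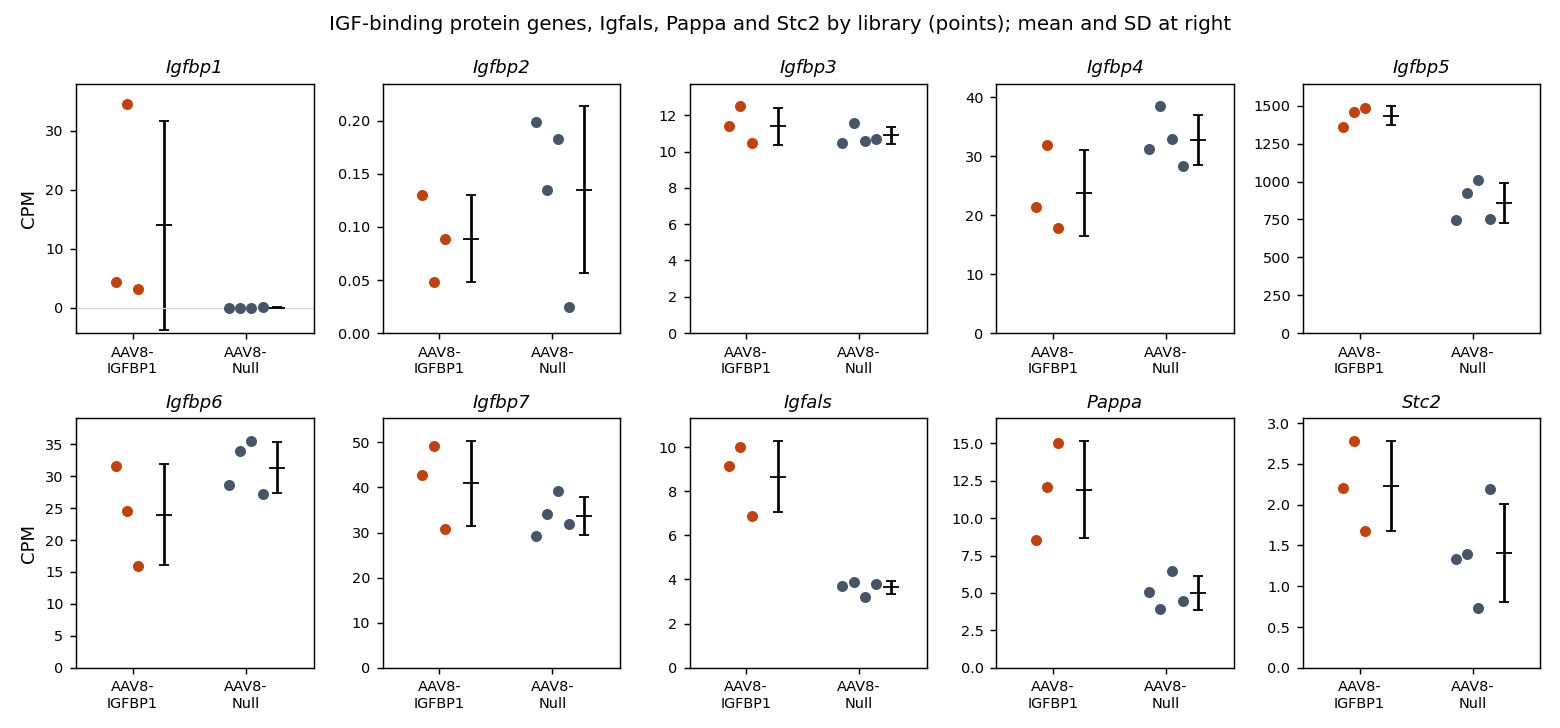
CPM of each gene (vertical axes, a scale of its own per gene) in the 3 AAV8-IGFBP1 and the 4 AAV8-Null libraries, as points, with the mean and SD at the right of each group. Igfbp1, Igfbp5, Igfals and Pappa have no overlap between the groups, and 1 AAV8-IGFBP1 library carries most of the Igfbp1 signal.

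Levels of different genes were ranked per length, as CPM per kilobase of the longest transcript in the GENCODE vM21 basic set. Igfbp5 was the highest of the 10 on this scale in both groups, at 239 ± 10.5 CPM per kilobase in AAV8-IGFBP1 and 143 ± 21.7 in AAV8-Null (SD, n = 3 and 4). Igfbp7 (34.1 ± 7.81 and 28 ± 3.55) and Igfbp6 (21.6 ± 7.07 and 28.1 ± 3.62) came next, in the same group order. They lay within their spread of each other in AAV8-Null and were apart by more than either SD in AAV8-IGFBP1. Igfbp4 (6.2 ± 1.93 and 8.56 ± 1.11) and Igfbp3 (4.74 ± 0.414 and 4.48 ± 0.209) followed, apart from each other by more than their SD in AAV8-Null only. Igfals stood at 3.3 ± 0.615 CPM per kilobase in AAV8-IGFBP1 and 1.39 ± 0.117 in AAV8-Null, above Pappa (1.08 ± 0.295 and 0.453 ± 0.101) and Stc2 (0.564 ± 0.14 and 0.358 ± 0.152). Pappa and Stc2 overlapped in AAV8-Null. Igfbp1 had no settled place in this order in AAV8-IGFBP1, where its mean of 9.19 ± 11.6 CPM per kilobase came mostly from replicate 2. It had 2.88, 22.6 and 2.06 CPM per kilobase in the 3 AAV8-IGFBP1 libraries, below Igfals (3.47 and 2.61) in replicates 1 and 3 and above Igfbp6 (22) in replicate 2. At 0.032 ± 0.0639 in AAV8-Null it was at the foot beside Igfbp2 (0.0681 ± 0.0312 in AAV8-IGFBP1, 0.104 ± 0.0603 in AAV8-Null).

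Igfbp1, the gene the vector was built to raise, checks the labels. It had 202, 1425 and 142 estimated counts (4.39, 34.5 and 3.14 CPM) in AAV8-IGFBP1 replicates 1, 2 and 3, and 0, 0, 0 and 8 counts in AAV8-Null replicates 1 to 4, the last being 0.195 CPM. A count of 0 allows up to 0.0596, 0.058 and 0.0786 CPM in AAV8-Null replicates 1, 2 and 3, from counting error alone. All AAV8-IGFBP1 libraries lay above all AAV8-Null libraries (two-sided exact permutation test, p = 0.0286, the lowest value possible with 35 splits). The edgeR adjusted p was 0.0691 with a fitted log2 fold change of 8.21 (SE 1.54), a value that depends on the prior count because most control libraries are at 0. It was 6.33 with an edgeR adjusted p of 0.00727 without AAV8-IGFBP1 replicate 2, and DESeq2 gave an adjusted p of 0.014. The counts per symbol do not separate RNA of the vector from RNA of the mouse gene, and the labels do not say which species' sequence the vector holds.

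Liver genes were read beside Igfbp1, and they differed among themselves. Alb had 40, 8 and 23 counts in AAV8-IGFBP1 replicates 1, 2 and 3 and 32, 25, 46 and 9 counts in AAV8-Null replicates 1 to 4. The library with the most Igfbp1 thus had the fewest Alb counts, and Igfbp1 counts per Alb count came to 5.05, 178 and 6.17 in AAV8-IGFBP1 and to 0.889 in AAV8-Null replicate 4. The whole list of 14 hepatocyte markers (5 tested, 0 called) summed to 78.6, 167 and 50.9 CPM in AAV8-IGFBP1 and to 37.6 to 49.6 CPM in AAV8-Null, without overlap and highest in AAV8-IGFBP1 replicate 2. Most of that sum was Trf and Cyp2e1, genes that fat also expresses. Trf had 42.6, 91.8 and 30.8 CPM in AAV8-IGFBP1 and 20.9 to 32.7 CPM in AAV8-Null, and Cyp2e1 had 32.8, 74.6 and 18.6 CPM in AAV8-IGFBP1 and 12.1 to 15.4 CPM in AAV8-Null (edgeR adjusted p 0.357 and 0.257). The other 12 markers summed to 147, 40 and 69 counts in AAV8-IGFBP1 and to 65, 76, 141 and 37 counts in AAV8-Null, and AAV8-IGFBP1 replicate 2 was among the lowest. AAV8-IGFBP1 replicate 2 also had the highest adipocyte marker sum, 1768 CPM, and the part of fat or liver cells in its Igfbp1 count was not tested.

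**Figure D2:**
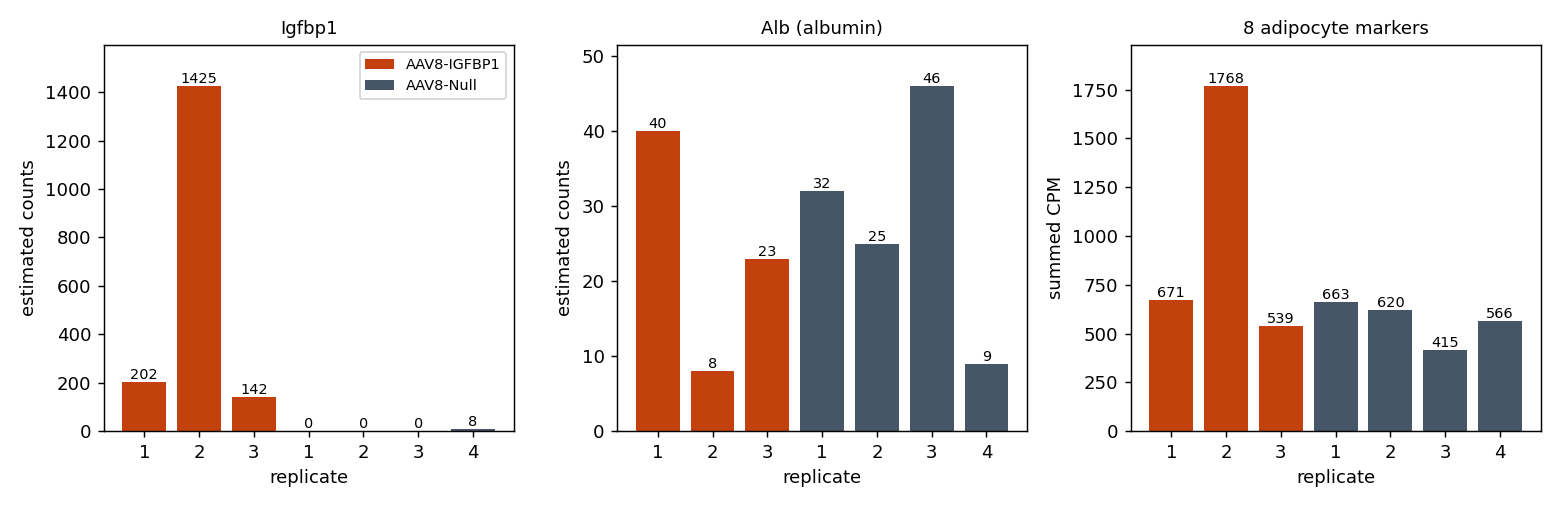
Bars give, by library, the estimated counts of Igfbp1 (left) and of Alb (middle) and the summed CPM of 8 adipocyte markers (right), with AAV8-IGFBP1 replicates before AAV8-Null replicates. Replicate 2 of AAV8-IGFBP1 has 1425 Igfbp1 counts beside 8 Alb counts and the highest adipocyte sum.

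The promoter of the mouse Igfbp1 gene is given because its own start site and the vector are 2 possible sources of these counts. The window holds 250 bases before to 50 after the start (RefSeq, GRCm38.p6, chr11:7197537-7197836, plus strand), and capitals mark the CAAAACA of the insulin response element through which insulin lowers this gene in liver, found at position -108.
Igfbp1: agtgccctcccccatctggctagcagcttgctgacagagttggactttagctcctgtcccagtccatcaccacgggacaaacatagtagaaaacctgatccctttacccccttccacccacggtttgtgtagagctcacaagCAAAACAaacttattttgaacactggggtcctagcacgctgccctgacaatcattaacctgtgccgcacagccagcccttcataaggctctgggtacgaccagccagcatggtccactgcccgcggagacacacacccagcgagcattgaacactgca
The letters CAAAACA on either strand are in 6.28% of 32851 such windows of all genes. Igfbp3, the adjacent coding gene on chromosome 11, encodes the main IGF carrier of serum. It had 11.4, 12.5 and 10.5 CPM in AAV8-IGFBP1 and 10.5, 11.6, 10.6 and 10.7 CPM in AAV8-Null. The groups overlapped nearly in full (log2 fold change 0.08, SE 0.08, approximate 95% interval -0.14 to 0.29, edgeR adjusted p = 0.77).

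Igfals encodes the acid-labile subunit, a leucine-rich serum protein induced by growth hormone in liver. It had 9.12, 9.99 and 6.86 CPM in AAV8-IGFBP1 and 3.7, 3.89, 3.2 and 3.8 CPM in AAV8-Null. The lowest AAV8-IGFBP1 library was above the highest AAV8-Null library by more than the whole range of AAV8-Null. The difference on the log2 scale was 1.24 (SE 0.14, edgeR adjusted p = 0.00985), the 12th lowest p of all genes. It was 1.13 (edgeR adjusted p = 0.034) without AAV8-IGFBP1 replicate 2. Leaving out AAV8-Null replicate 1 ended the call (log2 fold change 1.25, edgeR adjusted p = 0.0526).

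Growth hormone acts through the transcription factor STAT5, whose binding element is the palindrome TTCNNNGAA. Promoter windows of RefSeq were found for 9 of the 10 genes, in 12 windows, and this element was in 2 of the 3 windows of Igfals and in none of the other 8 genes' windows. It was in 8.3% of the 32851 windows of all genes. The first window (GRCm38.p6, chr17:24877594-24877893, plus strand) has it at position -236, and the second (chr17:24877981-24878280, plus strand) at -58, where positions count from the start site. The second window also holds the forkhead core GTAAACA, read on the other strand, at -242, and 3.65% of all windows hold that core. Capitals mark these letters, and both windows are shown because they hold the element. Igfals had more windows, 3, than any other of these genes, and which start is used in this muscle was not tested.
Igfals, first window: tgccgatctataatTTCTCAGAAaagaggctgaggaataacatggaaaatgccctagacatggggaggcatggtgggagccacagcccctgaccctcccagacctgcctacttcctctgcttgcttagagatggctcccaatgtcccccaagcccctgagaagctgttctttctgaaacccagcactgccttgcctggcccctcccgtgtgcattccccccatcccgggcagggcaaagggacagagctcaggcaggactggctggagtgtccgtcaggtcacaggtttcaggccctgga
Igfals, second window: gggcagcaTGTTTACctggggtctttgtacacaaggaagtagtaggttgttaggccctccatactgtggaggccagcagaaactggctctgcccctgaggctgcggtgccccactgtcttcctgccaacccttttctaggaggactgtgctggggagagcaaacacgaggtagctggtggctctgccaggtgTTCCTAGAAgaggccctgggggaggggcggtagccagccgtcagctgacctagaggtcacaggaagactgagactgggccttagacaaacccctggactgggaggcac
A match to the letters is a description of the sequence and was not tested as a binding site.

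Igfbp5, the binding protein gene with the highest level per length, had 1363, 1456 and 1483 CPM in AAV8-IGFBP1 and 749, 923, 1012 and 752 CPM in AAV8-Null. The AAV8-IGFBP1 libraries lay close together, with a coefficient of variation of 4.38%, against 15.2% in AAV8-Null. The log2 fold change was 0.74 (SE 0.11, edgeR adjusted p = 0.0295). The direction stayed with each library left out in turn (0.68 to 0.83). The call was lost without AAV8-Null replicate 1 or without any of the AAV8-IGFBP1 replicates (edgeR adjusted p 0.0728 to 0.0863), among them replicate 2 (log2 fold change 0.73, edgeR adjusted p = 0.083). Of all counts of the 10 genes, Igfbp5 took 91.2%, 89.1% and 93.6% in AAV8-IGFBP1 and 87.2%, 87.9%, 88.7% and 87.3% in AAV8-Null. These shares are not scaled for transcript length, which is 6006 bases for Igfbp5 and 1112 for Igfbp6. Together the 10 genes took 0.151%, 0.169% and 0.155% of the library in AAV8-IGFBP1 and 0.0879%, 0.106%, 0.112% and 0.0831% in AAV8-Null, so most of the larger share was Igfbp5.

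The window at the Igfbp5 start (RefSeq, GRCm38.p6, chr1:72874816-72875115, minus strand) is given beside those of Igfals because it is the other gene that rose. It held none of the 3 motifs searched, which says only that these letters are not in this window.
Igfbp5: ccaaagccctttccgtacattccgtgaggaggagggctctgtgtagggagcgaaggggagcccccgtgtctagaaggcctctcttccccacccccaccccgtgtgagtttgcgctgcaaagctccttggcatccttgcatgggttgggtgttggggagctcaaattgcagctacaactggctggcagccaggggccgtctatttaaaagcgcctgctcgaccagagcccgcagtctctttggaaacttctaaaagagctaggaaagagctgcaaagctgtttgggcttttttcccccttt
Igfbp2, the adjacent coding gene on chromosome 1 and a binding protein of the growing animal, was barely detected. It had 6, 2 and 4 counts in AAV8-IGFBP1 and 10, 7, 7 and 1 counts in AAV8-Null, was removed by the filter on low counts and was not tested.

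Pappa had 8.51, 12.1 and 15 CPM in AAV8-IGFBP1 and 5.09, 3.91, 6.5 and 4.48 CPM in AAV8-Null. The groups did not overlap, and AAV8-IGFBP1 replicate 3 was the highest, while for Igfals it was the lowest of its group. The log2 fold change of 1.26 (SE 0.22, approximate 95% interval 0.69 to 1.83) was close to that of Igfals, and the edgeR adjusted p of 0.0644 missed the threshold. DESeq2 called it (adjusted p = 2.9e-06), and so did edgeR without AAV8-IGFBP1 replicate 1 (log2 fold change 1.45, edgeR adjusted p = 0.0327). Without AAV8-IGFBP1 replicate 2 the log2 fold change was 1.24 (edgeR adjusted p = 0.177). Its estimated count was fractional in all 7 libraries (tolerance 0.01), as it was in 1 library each for Igfbp4 and Igfbp5 and in none for the other 7 genes, so part of its reads was shared out by the counting.

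Stc2 had 2.21, 2.78 and 1.68 CPM in AAV8-IGFBP1 and 1.33, 1.39, 0.733 and 2.19 CPM in AAV8-Null. The groups overlapped through AAV8-Null replicate 4, and the log2 fold change was 0.65 (SE 0.31, approximate 95% interval -0.14 to 1.43, edgeR adjusted p = 0.421). The related protease gene Pappa2, whose product cuts IGFBP3 and IGFBP5, is named after its values were seen. It had 4.39, 3.31 and 1.13 CPM in AAV8-IGFBP1 and 0.636, 1.39, 2.62 and 0.633 CPM in AAV8-Null, with overlap (log2 fold change 1.2, SE 0.6, edgeR adjusted p = 0.478). Stc1, the other stanniocalcin gene, had 0.434, 0.411 and 1.06 CPM in AAV8-IGFBP1 and 0.378 to 1.06 CPM in AAV8-Null (log2 fold change -0.13, edgeR adjusted p = 0.94). The sign of this fold change turned in 3 of the 7 fits with 1 library left out.

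Igfbp4 and Igfbp6, which encode an inhibitory binding protein cut by the Pappa product and one that prefers IGF2, were the 2 tested genes with a log2 fold change below 0. Igfbp4 had 21.4, 32 and 17.8 CPM in AAV8-IGFBP1 and 31.3, 38.5, 32.9 and 28.4 CPM in AAV8-Null. Only AAV8-IGFBP1 replicate 2 reached the AAV8-Null range; the log2 fold change was -0.47 (SE 0.2, approximate 95% interval -0.99 to 0.05, edgeR adjusted p = 0.397), and -0.74 (edgeR adjusted p = 0.083) without that library. Igfbp6 had 31.6, 24.5 and 15.9 CPM in AAV8-IGFBP1 and 28.6, 33.9, 35.5 and 27.2 CPM in AAV8-Null (log2 fold change -0.38, SE 0.23, approximate 95% interval -0.96 to 0.2, edgeR adjusted p = 0.546). Its lowest library, AAV8-IGFBP1 replicate 3, was also the lowest for fibro-adipogenic progenitor markers (8 genes, 1 called lower; 859, 748 and 537 CPM summed in AAV8-IGFBP1, 813, 1003, 1052 and 798 CPM in AAV8-Null) and for tenocyte markers (8 genes, 0 called; 326, 194 and 81 CPM in AAV8-IGFBP1, 209, 200, 406 and 176 CPM in AAV8-Null). The part of these cells in the Igfbp6 values was not tested, and without this library the log2 fold change of Igfbp6 was -0.16.

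Igfbp7, a matrix protein of vessels that binds IGFs weakly, had 42.7, 49.3 and 30.8 CPM in AAV8-IGFBP1 and 29.3, 34.1, 39.3 and 31.8 CPM in AAV8-Null. The groups overlapped through AAV8-IGFBP1 replicate 3 (log2 fold change 0.28, SE 0.16, approximate 95% interval -0.14 to 0.7, edgeR adjusted p = 0.532). Endothelial markers (8 genes, 0 called) summed to 197 to 203 CPM in AAV8-IGFBP1 and 196 to 239 CPM in AAV8-Null. An exon of Igfbp7 overlaps Polr2b on the opposite strand in the GENCODE vM21 annotation, and without a stated strand setting reads of the overlap cannot be told apart; the other 9 genes share no exon with another gene there.

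**Figure D3:**
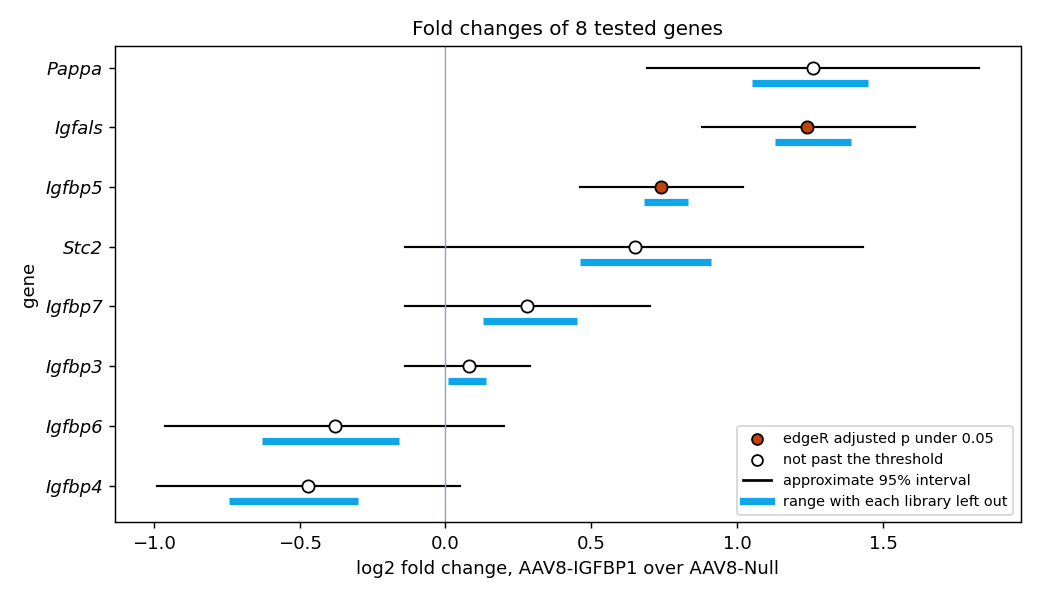
Points give the log2 fold change (AAV8-IGFBP1 over AAV8-Null, horizontal axis) of the 8 tested genes other than Igfbp1, filled where the edgeR adjusted p is under 0.05, black lines an approximate 95% interval and blue bars the range with each of the 7 libraries left out. Igfals and Igfbp5 are filled, and the blue bars of all 8 genes keep to one side of 0.

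Around the binding proteins, 60 genes in 6 lists were counted, chosen with earlier results of these data known. Of the 48 tested, 1 rose and 1 fell, where 0.583% of all genes were called in either direction. Both were in the growth hormone to STAT5 list (9 of 9 tested). Socs2, a feedback inhibitor of the growth hormone receptor, had 28.7, 31.6 and 26.1 CPM in AAV8-IGFBP1 and 6.14, 9.51, 9.66 and 7.01 CPM in AAV8-Null (log2 fold change 1.83 ± 0.16 SE, edgeR adjusted p = 0.00679). Bcl6, a repressor gene that STAT5 is known to lower, had 60.6, 65 and 61.8 CPM in AAV8-IGFBP1 and 126, 117, 146 and 107 CPM in AAV8-Null (log2 fold change -0.99 ± 0.1 SE, edgeR adjusted p = 0.00679). In neither gene did the groups overlap, as in 6 of the 48 tested list genes and 12.3% of all genes (either direction). A part of growth hormone or STAT5 in these values, or in those of Igfals, was not tested. The receptor gene Ghr (log2 fold change 0.13) and the STAT5 genes Stat5a (0.12) and Stat5b (0.04) did not pass (edgeR adjusted p 0.622, 0.647 and 0.882). The rest of the list had overlapping groups and did not pass either. Cish had a log2 fold change of 0.89, Jak2 0.11, Socs3 -0.95 and Socs1 -1.77 (edgeR adjusted p 0.74, 0.73, 0.699 and 0.593). Genes of the list other than Socs2 and Bcl6 are named after their values were seen.

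None of the 7 tested genes of the IGF ligand and receptor list was called by edgeR (median log2 fold change -0.01). This list also holds Irs1 and Irs2, which encode receptor substrates. At an unadjusted p under 0.05, 1 was higher and 2 were lower, where 12.9% of all genes passed in either direction. DESeq2 called 1, Igf1 (adjusted p = 0.00863), where it called 2.91% of all genes. Igf1, the main growth factor bound by these proteins, had 32.4, 40.8 and 29.6 CPM in AAV8-IGFBP1 and 21.9, 23.8, 27.2 and 17.5 CPM in AAV8-Null; the groups did not overlap, and the log2 fold change of 0.6 (SE 0.16) missed the threshold (edgeR adjusted p = 0.177). Igf2r, the receptor that clears IGF2, averaged 83.6 ± 5.59 CPM in AAV8-IGFBP1 and 96.3 ± 4.65 CPM in AAV8-Null (SD, n = 3 and 4; log2 fold change -0.2, edgeR adjusted p = 0.246). Irs2, named after its values were seen, had 25.6, 27.9 and 23 CPM in AAV8-IGFBP1 and 48.8, 37, 159 and 47.6 CPM in AAV8-Null. Its groups did not overlap, as with Igf1 and with 12.3% of all genes (either direction). Its log2 fold change of -1.52 (SE 0.6) missed the threshold (edgeR adjusted p = 0.386).

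None of 13 tested genes of other proteases that can cut IGF-binding proteins was called by edgeR (median 0.02). At an unadjusted p under 0.05, 0 were higher and 3 lower, and DESeq2 called 1, Mmp2 (adjusted p = 0.0148). The shares of all genes, in either direction, were 12.9% and 2.91%. Mmp2, the matrix metalloprotease gene with the lowest p of that list, averaged 20.4 ± 4.44 CPM in AAV8-IGFBP1 and 31.6 ± 6.01 CPM in AAV8-Null (log2 fold change -0.63 ± 0.19 SE, edgeR adjusted p = 0.236). Mmp3 averaged 0.203 ± 0.032 CPM in AAV8-IGFBP1 and 0.49 ± 0.265 CPM in AAV8-Null, with overlap (-1.28 on the log2 scale, adjusted p 0.35 by edgeR). None of the 8 tested genes of IGFBP-related proteins (median -0.26) and none of the 10 of matrix partners (median -0.11) was called by edgeR or DESeq2. The edgeR p before adjustment was under 0.05 for 1 gene, higher, in the first of these lists and for 1 gene, lower, in the second. That was so for 12.9% of all genes. Among the related proteins the log2 fold change was 0.54 for Kazald1 (adjusted p 0.264 by edgeR) and -0.36 for Ccn3 (0.519), and among the partners Vtn, the gene of the IGFBP5-binding protein vitronectin, had -0.49 (0.258) and Itga5 -0.41 (0.46).

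**Figure D4:**
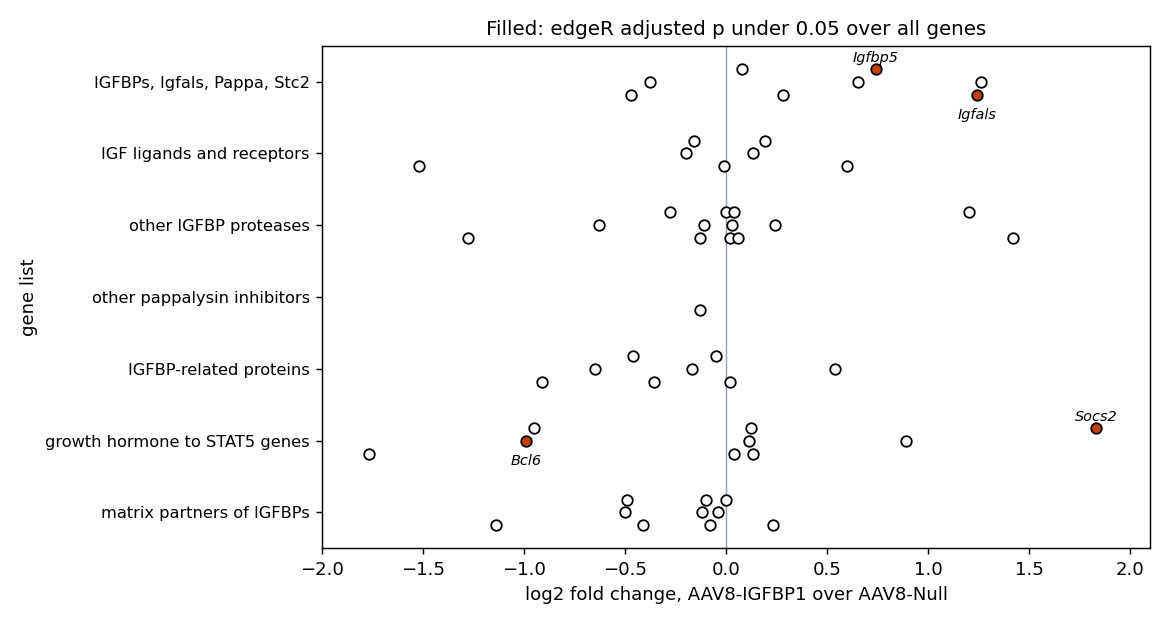
Each point is a tested gene, placed by its log2 fold change (AAV8-IGFBP1 over AAV8-Null, horizontal axis) in the row of its list, and filled and named where the edgeR adjusted p is under 0.05. Filled points are Igfals and Igfbp5 in the top row, which leaves out Igfbp1 at 8.21, and Socs2 and Bcl6 among the growth hormone genes.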

How the data were processed

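RNA of 7 quadriceps libraries was extracted (RNeasy Mini Kit) and sequenced from Universal Plus mRNA-Seq libraries, per the labels' protocols. The authors deposited estimated counts per gene symbol, not scaled for depth. The submitters' processing notes name Salmon 1.10.1 and STAR 2.7.9a, Trim Galore 0.6.7 with cutadapt 3.4, R 4.2.2 and build GRCm39, without their roles; annotation and strand setting are not given in the sources used here.

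Libraries were grouped by their titles and treatment labels. Estimated counts were rounded to whole numbers and tested with edgeR 4.0.16 in R 4.3.3: filterByExpr (minimum count 10, minimum total 15), TMM, glmQLFit (robust, current method) and glmQLFTest on group, with Benjamini-Hochberg adjustment over 14935 genes. Standard errors are the log2 fold change over the square root of F, and intervals use 5 degrees of freedom, so both are approximate. CPM uses TMM-scaled totals. Floors are 3 counts of a library and cover counting error only. Chi-square between libraries of one group was 20.4 to 54.6 per degree of freedom, above counting noise, so all 7 were counted as separate samples. The replicate numbers did not pair the libraries (sensitivity below). Alternatives used DESeq2 1.42.0 and limma 3.58.1. Steps were tested on 5 simulated sets. There 32% of 1.5-fold and 70.1% of 2-fold changes were recovered, and 7.35% of calls were false. A gene not called here may thus still have changed.

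Named were the 10 genes, list genes past the threshold and the 2 of each list with the lowest p. Genes and lists were chosen with earlier results of these data known. Promoter sequences and neighbouring genes are RefSeq's on GRCm38.p6, transcript lengths GENCODE vM21's; no position on the counts' build is given.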

Additional observations from a re-analysis of the deposited data

Results flagged for a closer look

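Igfbp1 in AAV8-Null replicate 4 lay at 0.195 CPM (8 counts) while the other 3 AAV8-Null libraries were at 0, a gap equal to the whole range of the group. With the others at 0 any count above 0 gives such a gap, so the size of the gap says nothing about this library. It was the 1 value past Dixon's 95% limit among 31 sets of 4 AAV8-Null values checked, where chance flags about 1 in 20. The same library had 9 Alb counts and the lowest sum of the 12 hepatocyte markers, 37 counts.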

How the results depend on the processing

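In 16 alternative fits every tested gene of the 10 kept the sign of its log2 fold change. The count of these genes called higher was 2, with 4 by DESeq2, 3 with robust set to FALSE, 1 with the replicate block and 0 to 2 with 1 library left out, and the count called lower was 0 throughout. Igfals was past the threshold in 14 of the 16 fits (log2 fold change 1.13 to 1.39, highest adjusted p 0.056), Igfbp5 in 11 (0.68 to 0.83, 0.105) and Pappa in 2 (1.05 to 1.45, 0.177). Igfbp1 passed in 4, with DESeq2 (8.18), robust set to FALSE (8.21), the replicate block (12.42) and without AAV8-IGFBP1 replicate 2, and ran from 6.33 to 12.3 with 1 library left out; the block and the fit without AAV8-Null replicate 4 leave the control at 0 counts, so these values are no fold. Over all genes 58 were higher and 29 lower, with 212 and 227 by DESeq2, 88 and 69 without a count filter, 3 and 1 with the block, 18 lower by limma-voom, and 11 to 43 higher and 3 to 36 lower with 1 library left out. Of the list genes 1 rose and 1 fell, with 2 and 2 by DESeq2, 0 and 0 with the block, and 1 to 2 and 1 to 1 with 1 library left out. Stc1 turned sign in 3 of the 7 fits with 1 library left out (-0.72 to 0.2). The adipocyte level difference of 0.64 was 0.02 without AAV8-IGFBP1 replicate 2. The cause of these shifts was not tested. Libraries with the same number did not deviate together (r = -0.13, 0.05 and -0.01 for numbers 1, 2 and 3), so the replicate block, which drops AAV8-Null replicate 4, pairs by number only; under it Igfals had an adjusted p of 0.056 and Igfbp5 of 0.105. The older edgeR method, added after the data were seen, called 2 of the genes. With at most 10 counts a library, Igfbp2 is limited by depth.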

Other observations

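By the likeness of log2 CPM over the 7 libraries after each group's mean was subtracted, among 10641 genes, the nearest to Igfbp5 were Mypop (r = 0.989), Sobp and Tecr, and to Pappa Naa30 (0.983), Telo2 and Phf1. None of these 6 passed the edgeR test between the groups (adjusted p 0.503 to 0.858). With 7 libraries and so many genes, values near 1 are a description only. Cish, a STAT5 target in the growth hormone list, had 38.6, 29.1 and 28.4 CPM in AAV8-IGFBP1 and 7.65, 48.6, 7.1 and 4.7 CPM in AAV8-Null, where replicate 2 was above all 6 other libraries (edgeR adjusted p = 0.74; named after its values were seen). AAV8-Null replicate 2 was also the highest library for Socs1 (6.98 CPM, others 0.316 to 1.93) and Socs3 (14 CPM, others 1.14 to 4.57). These 2 were likewise named after their values were seen, and the cause was not tested.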
